A study of Mus musculus with 26 samples.

Results

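The Eph receptors, their ephrin ligands, the Slits and their Robo receptors were measured by RNA sequencing in motor neuron spheroids. They were taken as every protein-coding gene of the count table whose symbol is Epha or Ephb with a number, Efna or Efnb with a digit, Slit1 to Slit3 or Robo1 to Robo4. This gave 29 of the 56941 genes: 9 EphA receptors, 5 EphB receptors, 5 ephrin-A ligands, 3 ephrin-B ligands, 3 Slits and 4 Robos. All 29 are described, and 25 had enough counts to be fitted.

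Spheroids were derived from the mouse stem cell line HBG3, whose HB9::GFP reporter marks motor neurons, with the genotype given only as heterozygous blastocysts. Stem cells grown on feeders were moved to low adhesion with retinoic acid and purmorphamine, a Hedgehog pathway agonist. The trophic factors CNTF and GDNF followed on day 5, and fibrin received the aggregated spheroids near day 8. Every group shares this history and this cell line. The static array group sat on a magnetic silicone array that was never moved, and the actuated array group on one moved at 4 Hz for 30 min each day. The low-intensity and high-intensity groups are labelled biochemical treatments, and the control group is the biochemical control. The design text describes muscle-conditioned medium, from stimulated or unstimulated muscle, but its sample names cannot be matched to the 2 intensity labels, so the groups go by intensity alone. Its title states the aim of telling mechanical and biochemical effects of muscle exercise apart.

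Levels and tests are given over 21 deeper libraries, those with at least 1000000 counts on protein-coding genes: 5 controls (replicates 1, 2, 3, 5 and 6), 5 low intensity (1 to 5), 4 high intensity (1, 2, 3 and 6), 3 static (1, 2 and 4) and 4 actuated (1 to 4). Their totals ran from 1551334 to 3971348 counts in the biochemical arm and from 7269276 to 13162635 on the arrays. The other 5 libraries held 1536 to 1457250 counts, and the shallowest of them held no count of any of the 29 genes. Motor neuron markers were present, with counts of 7 or 8 of the 8 genes fixed for that type in every deeper library. The floor plate gene Foxa2 was at 0 in 11 of the 21. The labels do not say that replicates came from separate cultures, so p-values measure the spread between these samples, which may be technical.

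Eph receptors are receptor tyrosine kinases that bind ephrins on the surface of neighbouring cells, and signalling can run into both cells. EphA receptors mainly bind ephrin-A ligands, which are anchored to the membrane by a glycolipid, and EphB receptors mainly bind ephrin-B ligands, which span it, while EphA4 binds both kinds. Slits are secreted proteins that repel growing axons through Robo receptors and bind heparan sulfate. In the spinal cord these systems steer motor axons into the dorsal or ventral limb and keep them from crossing the midline, and the floor plate is a known source of Slits.

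The starts of 4 genes are shown because the results turn on them. Slit2 and Epha7 were the members that passed the test against the control on an array. Ephb2 had the highest median level per length and Robo4 one of the lowest. The sequences are from RefSeq on build GRCm38.p6 and run from 250 bases before to 50 bases after the listed start, on the gene's own strand. Slit2 lies on the plus strand at chr5:47982905-47983204, Epha7 on the plus strand at chr4:28812881-28813180 (a second listed start overlaps it), Ephb2 on the minus strand at chr4:136835963-136836262 and Robo4 on the plus strand at chr9:37401722-37402021. Capitals mark each CG, the dinucleotide that is methylated in vertebrate DNA, and methylation was not measured.
Slit2: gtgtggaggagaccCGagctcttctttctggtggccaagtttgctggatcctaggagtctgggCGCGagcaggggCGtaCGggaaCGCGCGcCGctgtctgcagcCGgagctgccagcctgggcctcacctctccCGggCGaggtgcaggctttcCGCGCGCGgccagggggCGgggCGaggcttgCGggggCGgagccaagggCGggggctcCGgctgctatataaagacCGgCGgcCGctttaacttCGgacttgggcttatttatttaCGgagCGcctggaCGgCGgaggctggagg
Epha7: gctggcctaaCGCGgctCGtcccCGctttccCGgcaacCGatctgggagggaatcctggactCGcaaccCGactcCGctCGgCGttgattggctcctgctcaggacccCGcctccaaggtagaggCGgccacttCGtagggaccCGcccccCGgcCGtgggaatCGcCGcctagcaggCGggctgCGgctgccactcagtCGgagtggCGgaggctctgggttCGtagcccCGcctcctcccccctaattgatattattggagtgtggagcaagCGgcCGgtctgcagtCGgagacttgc
Ephb2: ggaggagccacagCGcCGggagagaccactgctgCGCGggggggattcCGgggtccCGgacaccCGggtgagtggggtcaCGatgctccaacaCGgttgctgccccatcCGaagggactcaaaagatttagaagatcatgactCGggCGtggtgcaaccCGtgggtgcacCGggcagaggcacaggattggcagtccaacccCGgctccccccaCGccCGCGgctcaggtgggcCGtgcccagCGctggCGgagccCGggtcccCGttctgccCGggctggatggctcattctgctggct
Robo4: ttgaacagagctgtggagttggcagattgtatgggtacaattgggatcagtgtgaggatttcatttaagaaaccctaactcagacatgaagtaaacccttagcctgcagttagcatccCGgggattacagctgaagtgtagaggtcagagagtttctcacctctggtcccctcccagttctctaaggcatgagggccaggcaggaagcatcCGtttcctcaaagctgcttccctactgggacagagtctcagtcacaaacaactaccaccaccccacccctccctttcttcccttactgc

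The Slit2 stretch held 30 CG, which 11.7% of the 32851 listed promoters of this length reached or passed. The Epha7 stretch held 28 (14.2% of promoters with as many or more) and the Ephb2 stretch 24 (19.98%). The Robo4 stretch held 2, and 23.3% of promoters had as few or fewer. RefSeq listed 32 starts for 27 of the 29 members, with a median of 20 CG against 7 over all listed promoters. These counts describe the sequence, with nothing drawn from them about regulation. Efnb3 and Slit1 were not among the matches.

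Per length, the most abundant member was the receptor Ephb2. TPM, an abundance scaled for gene length and library depth, is used here to order genes and to give family shares. Medians over the 21 deeper libraries are given. Ephb2 was at 43.7 TPM and ranked first in 16 of the 21 libraries. The Slit receptor Robo2 followed at 35.04 TPM, then Epha4 at 32.5, Epha5 at 32.4 and Robo1 at 30.03 TPM. Each of Robo2, Epha4, Epha5 and Robo1 was among the 7 highest members in all 21 libraries, and their ranges overlapped one another's. Slit2, at 19.8 TPM, took any place from first to fifteenth.

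Among the EphA receptors below those, Epha3 was at 17.1 TPM and Epha7 at 10.01 TPM. Epha10, whose kinase domain is inactive, was at 4.12 and Epha6 at 4.09 TPM. Epha2, best known from epithelia, was at 1.51 and Epha8 at 0.592 TPM. Epha1 had a median of 0. The EphB receptors after Ephb2 were Ephb1 at 19.7 TPM, the kinase-inactive Ephb6 at 9.68, Ephb4, a vascular receptor, at 4.0999, and Ephb3 at 4.06 TPM. Receptors of both classes were therefore detected side by side, with Ephb4 and Ephb3 at nearly equal medians.

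The leading ephrin per length was Efnb2 at 19.2 TPM. Its relatives Efnb3 and Efnb1 were at 9.201 and 7.45 TPM. Of the ephrin-A ligands, Efna5 was at 10.3 TPM, Efna3 at 8.08, Efna2 at 4.61, Efna1 at 1.29 and Efna4 at 0.995 TPM. Among the Slits, Slit1 was at 17.9 TPM, close to Slit2, and Slit3 at 5.47 TPM. Robo3, which in commissural neurons counters Slit repulsion, was at 0.0789 TPM, and Robo4, an endothelial receptor, had a median of 0. Neighbours in this order mostly overlapped in range, as the plot of TPM by gene shows.

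**Figure D1:**
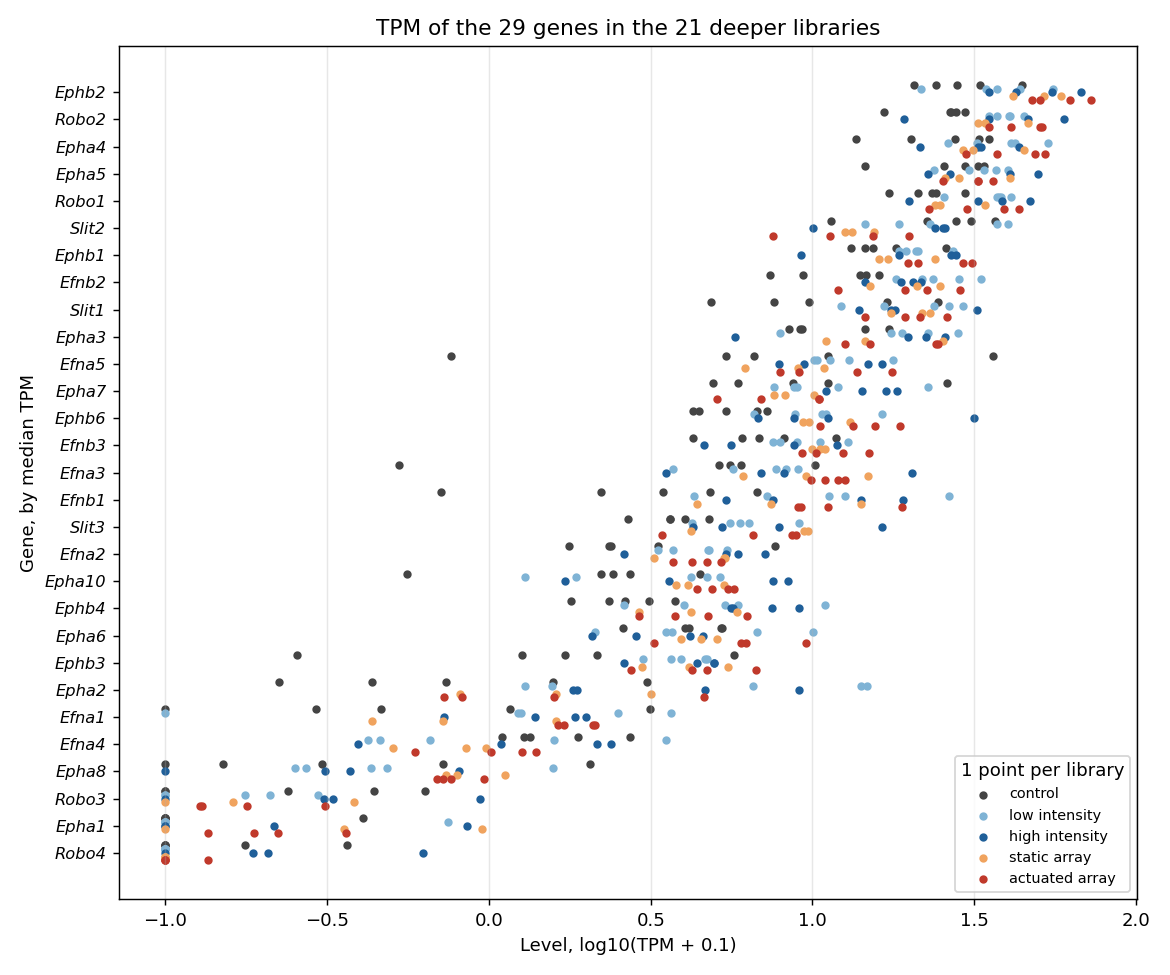
Each point is 1 deeper library, the x axis is log10(TPM + 0.1) and genes run from the highest median TPM (Ephb2) to the lowest (Robo4), coloured by group. Ephb2, Robo2, Epha4, Epha5 and Robo1 lead, and Robo3, Epha1 and Robo4 lie at or near the left edge, which stands for 0.

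Detection of the lowest members was limited by depth. Robo4 had 0 counts in all 5 low-intensity and all 3 static deeper libraries, where a count of 0 allows up to 0.833 to 1.93 CPM and 0.228 to 0.388 CPM (CPM is the count scaled to library size; 3 counts per library, counting error only). Its highest value was 1.40 CPM, in a control. Epha1 reached at most 2.47 CPM and Robo3 at most 1.74 CPM. These 3 genes and Efna1 had too few counts to be fitted.

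As shares of the summed TPM of the 29 genes, EphA receptors made up 28.9 ± 2.54% (SD, n = 21), EphB receptors 22.8 ± 3.64%, Robos 18.3 ± 1.68%, Slits 12.6 ± 2.79%, ephrin-B 10.1 ± 1.91% and ephrin-A 7.30 ± 2.08%. Receptors thus held more of the total than ligands in these libraries. The Slit share was 14.6 ± 3.09% in the controls (n = 5), 13.7 ± 2.61% at low (n = 5) and 12.3 ± 2.61% at high intensity (n = 4). It was 11.7 ± 0.945% on the static array (n = 3) and 9.64 ± 1.15% on the actuated array (n = 4). By counts, the log2 fold changes of actuated against static array were 0.11 for Slit1, 0.22 for Slit2 and -0.03 for Slit3. The lowest control, at 9.73%, lay within the actuated range of 7.91% to 10.3%. No test was made of these shares.

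**Figure D2:**
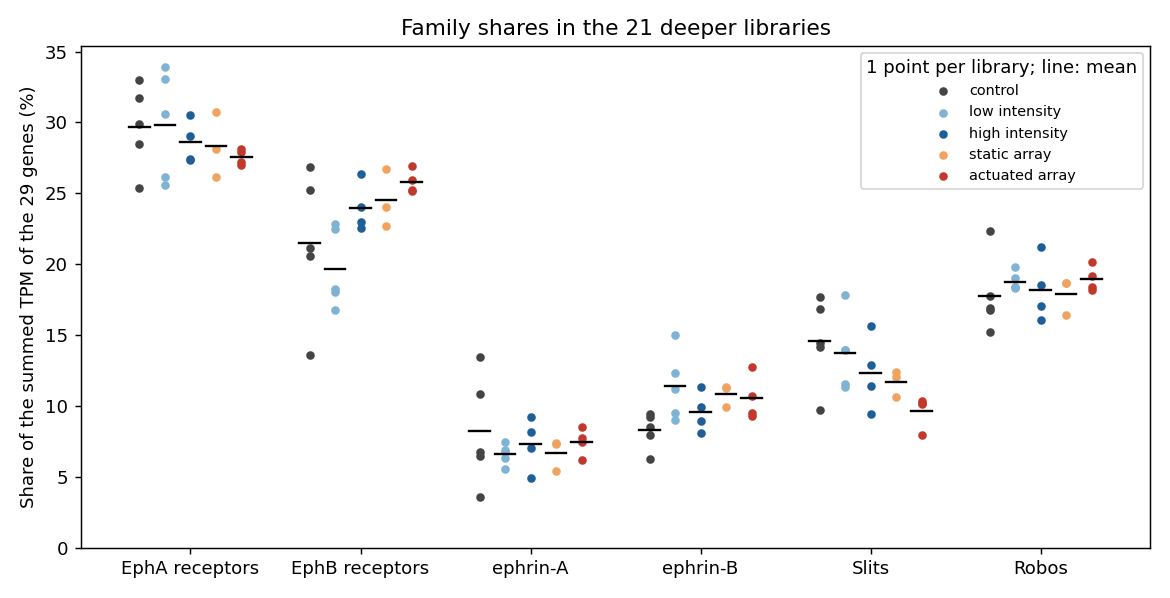
Each point is 1 deeper library and each line a group mean; the y axis is the share (%) of the summed TPM of the 29 genes held by each family. EphA receptors hold the largest mean share, 28.9%, and the Slit points of the actuated array lie between 7.91% and 10.3%.

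TPM did not track counts for every member. In low-intensity replicate 5, Slit2 had 187 counts and 40.2 TPM, while low-intensity replicate 3 had 240 counts and 14.4 TPM. The main tests between groups therefore rest on the counts, expressed per library size as CPM with TMM scaling. On that scale the members differed in how much they varied within groups. The pooled within-group SD of log2 CPM was 0.130 for Ephb2, the lowest of the 29, 0.169 for Epha5, 0.174 for Robo2 and 0.176 for Robo1. It was 0.285 for Slit2 and 0.287 for Epha7, and 1.41 for Epha2, the highest. The median over all fitted genes was 0.402, and 13 of the 29 members were below it.

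The first comparison was the static array with the control. Slit2, a Slit that repels motor and commissural axons, was lower on the static array. In the biochemical arm, the normalised level of Slit2 was 109.6, 78.2, 99.98, 134 and 105 CPM in the 5 control libraries, 57.8, 84.6, 81.7, 98.6 and 63.6 CPM in the 5 low-intensity libraries and 106, 104, 68.7 and 107 CPM in the 4 high-intensity libraries. On the arrays, Slit2 was at 64.6, 50.6 and 56.5 CPM in the 3 static and 64.1, 85.8, 52.9 and 62.8 CPM in the 4 actuated libraries. The highest static library lay below the lowest control, and the actuated range overlapped the control range. The fall on the static array passed the test (log2 fold change -0.88, SE 0.19, edgeR adjusted p 0.0333). It was the only member called of 25, that is 1 gene where 0.713% of the 14730 fitted genes were called (105 genes, 44 higher and 61 lower). The members' median log2 fold change was -0.01, against 0.00 over all genes.

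The Slit2 call was close to the threshold. It was lost when any 1 of these libraries was left out, with the edgeR adjusted p in parentheses: control replicates 1 (0.0539) and 5 (0.0664) and static replicates 1 (0.0759), 2 (0.217) and 4 (0.193). It was also lost with all 26 libraries (0.535), with a fit of only these groups (0.0589) and with limma on log2(TPM + 1) (0.1903), and over all alternatives the edgeR, DESeq2 and limma adjusted p ran from 0.0009996 to 0.535. As CPM of protein-coding counts alone, Slit2 was at 60.2 to 77.3 in the deeper static and 90.03 to 160.03 in the deeper control libraries. On that scale the shallow static replicate 3 was at 89.6 (41 counts) and the shallow control replicate 4 at 202 (55 counts).

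Marker genes of other cells moved with the same comparison. Summed over the 4 floor plate genes, the deeper controls held 218 to 259 CPM, the static libraries 290 to 302 CPM and the actuated libraries 299 to 351 CPM. Of the 3 fitted floor plate genes, Ntn1, which encodes netrin-1, was called higher on the static array (log2 fold change 1.37, SE 0.23, edgeR adjusted p 0.00392), with means of 32.3 CPM in the controls and 84.7 CPM on the static array. The list did not move as one: Spon1 had means of 197 and 206 CPM, and Shh, the floor plate's signalling protein, 7.81 and 2.40 CPM (log2 fold change -1.68, SE 0.58, edgeR adjusted p 0.186). The 6 astrocyte and oligodendrocyte genes summed to 1442 to 2058 CPM in the controls, 2494 to 3270 CPM on the static and 2015 to 3537 CPM on the actuated array. All 6 were higher on the static array at an unadjusted p under 0.05, and none was called (smallest edgeR adjusted p 0.0579). Of 7 fitted motor neuron genes 1 was called lower on the static array, the choline transporter Slc5a7 (log2 fold change -1.88, SE 0.31, edgeR adjusted p 0.00392). The 8 motor neuron genes together overlapped, at 599 to 866 CPM in the controls and 548 to 675 CPM on the static array. Prph held most of that sum, with means of 535 CPM in the controls and 545 CPM on the static array. In the same order Isl1 had means of 14.4 and 4.95 CPM, Chat 11.3 and 6.09 CPM and Lhx3 1.24 and 1.56 CPM. Of the 7 fitted motor neuron genes, 3 had an unadjusted p under 0.05, as did 12.6% of all fitted genes. The part of these cells in the Slit2 difference was not tested. In bulk RNA, fewer cells of a type and less RNA per cell cannot be told apart, and neither can the array and anything else that differed between the arms.

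The EphA receptor Epha7 was also lower on the arrays. Epha7 was at 56.4, 48.7, 50.8, 44.5 and 38.5 CPM in the controls, 34.3, 41.6, 35.4, 27.2 and 41.8 CPM at low intensity and 48.7, 57.97, 32.7 and 35.5 CPM at high intensity. Static libraries had Epha7 at 33.5, 33.7 and 26.9 CPM, and actuated libraries at 32.4, 34.5, 24.4 and 19.9 CPM. Both array groups lay below the lowest control, and the high-intensity range overlapped that of every other group. Against the control, Epha7 fell on the actuated array (log2 fold change -0.78, SE 0.19, edgeR adjusted p 0.0463), a comparison added after seeing the Slit2 result. On the static array its value did not pass the test (log2 fold change -0.61, SE 0.21, edgeR adjusted p 0.189). Epha7 was the only member called of 25 on the actuated array, where 1.22% of the fitted genes were called (180 genes, 99 higher and 81 lower). Both array comparisons share the control libraries. Slit2 on the actuated array was at 66.4 ± 13.9 CPM (SD, n = 4) against 105 ± 20.2 CPM (n = 5) in the controls (log2 fold change -0.66, SE 0.18, edgeR adjusted p 0.0627). The members' median log2 fold change on the actuated array was -0.02, against -0.01 over all genes.

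The Epha7 call was lost when any 1 of these libraries was left out, with the edgeR adjusted p in parentheses: control replicates 1 (0.0856), 2 (0.0688), 3 (0.0714) and 5 (0.0592), low-intensity replicates 2 (0.0541) and 3 (0.0518), high-intensity replicate 6 (0.0504), actuated replicates 1 (0.0653), 3 (0.175) and 4 (0.197) and static replicates 1 (0.0641), 2 (0.0634) and 4 (0.0557). It was also lost with all 26 libraries (0.962), a minimum of 1 CPM in 4 libraries (0.0638), mitochondrial and rRNA genes removed (0.0507) and only the groups compared (0.0883). The same held in limma voom, run with quality weights per library (0.0725), and in limma on log2(TPM + 1) (0.632). Over all alternatives the edgeR, DESeq2 and limma adjusted p ran from 0.00627 to 0.962. In limma voom Slit2 was called on the actuated array instead (0.0242), as it also was without a filter (0.0195) and in DESeq2 (0.0106). Slit2 passed there too when any 1 of these was left out: control replicate 2 (0.0399), high-intensity replicate 3 (0.0411) and actuated replicate 2 (0.03904). As CPM of protein-coding counts, Epha7 was at 23.8 to 41.5 on the actuated array and 47.5 to 69.1 in the deeper controls, with the shallow control replicate 4 at 69.8 (19 counts). Single genes of the same marker lists were called here: Ntn1 higher (edgeR adjusted p 0.00284), Slc5a7 lower (0.0191) and 2 of 6 astrocyte and oligodendrocyte genes higher (smallest 0.0421). The motor neuron list had a median log2 fold change of 0.05, and its sum of 627 to 760 CPM lay inside the control range. Shh had means of 7.81 CPM in the controls and 3.59 CPM on the actuated array, and Spon1 197 and 235 CPM. Of the 4 fitted epithelial genes, Cdh1 was called higher (0.0257). In the same order Krt8 had means of 42.5 and 28.5 CPM and Krt18 19.9 and 23.4 CPM. Of the 8 fibroblast genes, Pdgfra was called higher (0.0417), while the list's median log2 fold change was -0.41 and its sum was 367 to 934 CPM in the controls and 159 to 617 CPM on the actuated array. Their part was not tested.

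**Figure D3:**
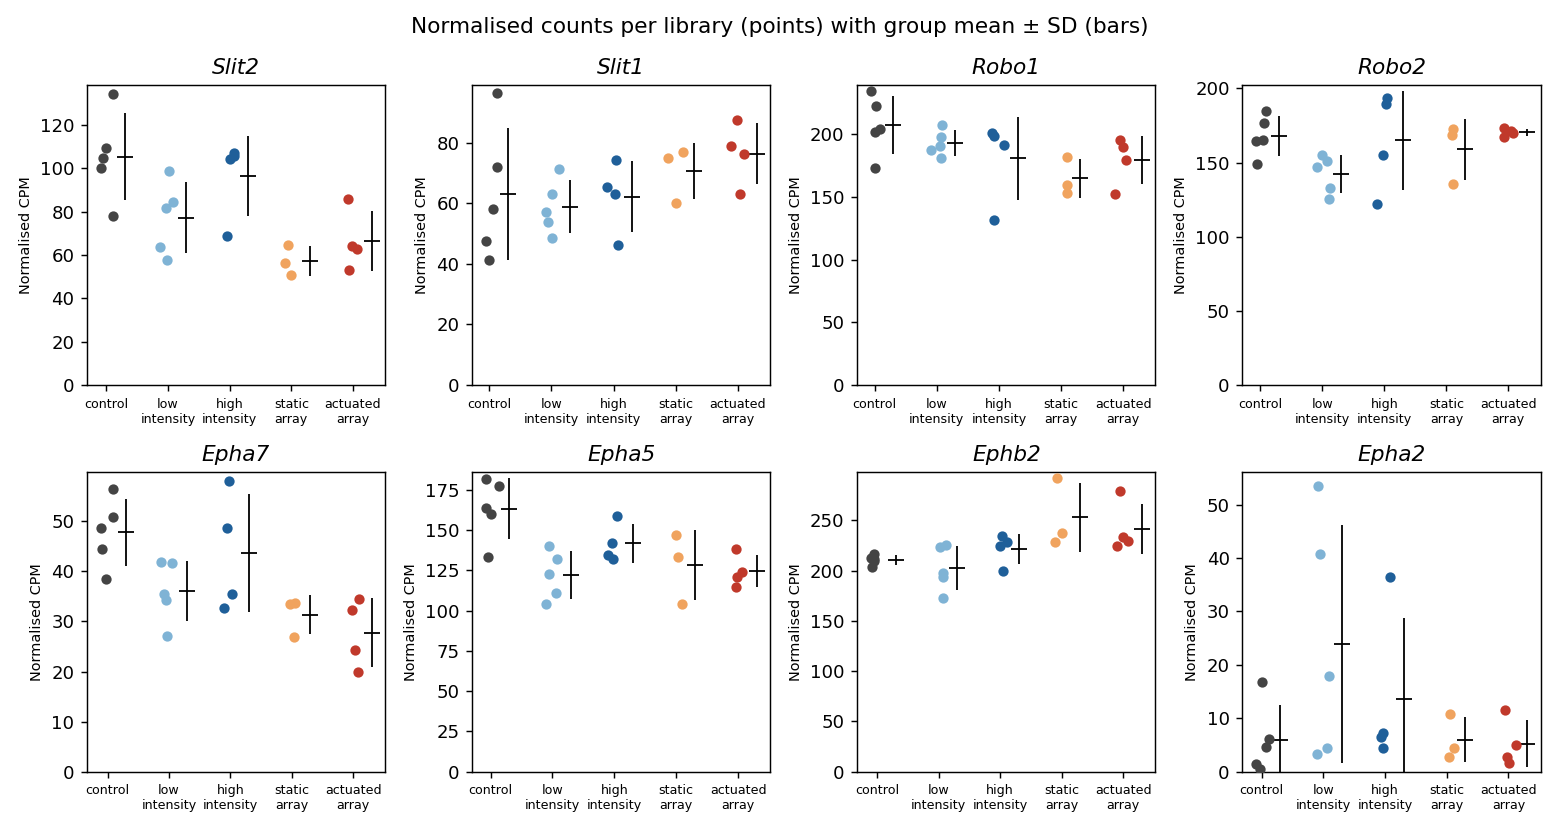
Each point is the normalised count (CPM) of 1 deeper library, with the group mean ± SD beside it, bars cut at 0; the axes start at 0. The 3 static points of Slit2 (50.6 to 64.6 CPM) lie below all 5 control points (78.2 to 134 CPM), and all 7 array points of Epha7 lie below its controls.

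Actuation itself was tested by comparing the actuated with the static array, the only comparison within the mechanical arm. No member was called, and 0% of the 14730 fitted genes were called (edgeR). Of the 25 members, 0 had an unadjusted p under 0.05, while 56 of all genes did. DESeq2 called 0 members and 5 of the 14730 fitted genes. The members' median log2 fold change was 0.08, against 0.00 over all genes, with 14 members above 0 and 11 below. The smallest p belonged to Slit2, at 66.4 ± 13.9 CPM (n = 4) against 57.2 ± 7.02 CPM (n = 3), with overlapping ranges (log2 fold change 0.22, SE 0.20, edgeR adjusted p 1). The precision allowed moderate differences in either direction: the 95% interval of the log2 fold change was -0.19 to 0.62 for Slit2 and -0.61 to 0.27 for Epha7. It was narrowest for Ephb2, -0.31 to 0.17, and widest for Epha8, -2.27 to 1.70.

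Low intensity was compared with the control. The leading member was Epha5, an EphA receptor known from neuronal mapping. The controls held Epha5 at 133, 160.2, 182, 177 and 163 CPM, the low-intensity libraries at 123, 104, 140.3, 132 and 111 CPM and the high-intensity libraries at 135, 142, 132 and 159 CPM. The static libraries held Epha5 at 147, 133 and 104 CPM and the actuated libraries at 124, 114, 121 and 138 CPM. The low-intensity libraries lay mostly below the controls, with 2 of the 5 (replicates 3 and 4) near or above the lowest control of 133 CPM. The difference did not pass the test (log2 fold change -0.42, SE 0.12, edgeR adjusted p 0.0734). No member was called, where 0.597% of the fitted genes were (88 genes, 65 higher and 23 lower). Of the members, 6 had an unadjusted p under 0.05, 2 higher and 4 lower, as did 15.2% of all fitted genes. The lower ones included the 2 members called on an array, and the array comparisons share these control libraries. Slit2 had a log2 fold change of -0.45 (95% interval -0.80 to -0.11) and Epha7 of -0.40 (95% interval -0.78 to -0.02). Without low-intensity replicate 3 Epha5 passed (edgeR adjusted p 0.0445), and DESeq2 called it (0.0234). Over all alternatives the edgeR, DESeq2 and limma adjusted p ran from 0.0234 to 0.99998. The members' median log2 fold change was -0.18, against -0.01 over all genes. Epha5 was lower on the arrays against the same control libraries as well, and was called on neither in edgeR. Its log2 fold change was -0.39 on the actuated array (95% interval -0.64 to -0.14) and -0.35 on the static array (95% interval -0.62 to -0.08).

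High intensity was compared with the same controls. No member was called, where 0.462% of the fitted genes were (68 genes, 45 higher and 23 lower). Of the 25 members, 5 had an unadjusted p under 0.05, 3 higher and 2 lower, as did 15.9% of all fitted genes. The smallest p belonged to Efnb3, a membrane-spanning ephrin known as a midline barrier. In the biochemical arm, the normalised level of Efnb3 was 39.1, 18.9, 43.1, 19.7 and 30.1 CPM in the 5 control libraries, 18.8, 28.5, 23.8, 21.5 and 21.8 CPM in the 5 low-intensity libraries and 20.4, 16.2, 15.9 and 24.2 CPM in the 4 high-intensity libraries. On the arrays, Efnb3 was at 26.01, 30.4 and 29.3 CPM in the 3 static and 26.8, 33.1, 28.03 and 27.4 CPM in the 4 actuated libraries. Low controls (18.9 and 19.7 CPM) lay inside the high-intensity range, and the difference did not pass the test (log2 fold change -0.65, SE 0.23, edgeR adjusted p 0.152). The members' median log2 fold change was -0.03, against 0.00 over all genes.

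With both intensities together against the control, 0 members were called, where 1.66% of the fitted genes were (244 genes, 169 higher and 75 lower). Again 6 members had an unadjusted p under 0.05, 4 higher and 2 lower, where 17.9% of all fitted genes did, with a median of -0.14 over the members and -0.01 over all genes. Epha5 had the smallest p here too (log2 fold change -0.31, SE 0.10, edgeR adjusted p 0.101). The 2 intensity groups were then set against each other. No member was called and 0% of the fitted genes were. Of the members, 0 had an unadjusted p under 0.05, and 1131 of all genes did (edgeR). DESeq2 called 0 members and 41 of the 14730 fitted genes. Slit2 had the smallest p, at 96.4 ± 18.5 CPM at high (n = 4) and 77.3 ± 16.6 CPM at low intensity (n = 5), with overlapping ranges (log2 fold change 0.33, SE 0.18, edgeR adjusted p 0.685). Its 95% interval was -0.04 to 0.70.

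**Figure D4:**
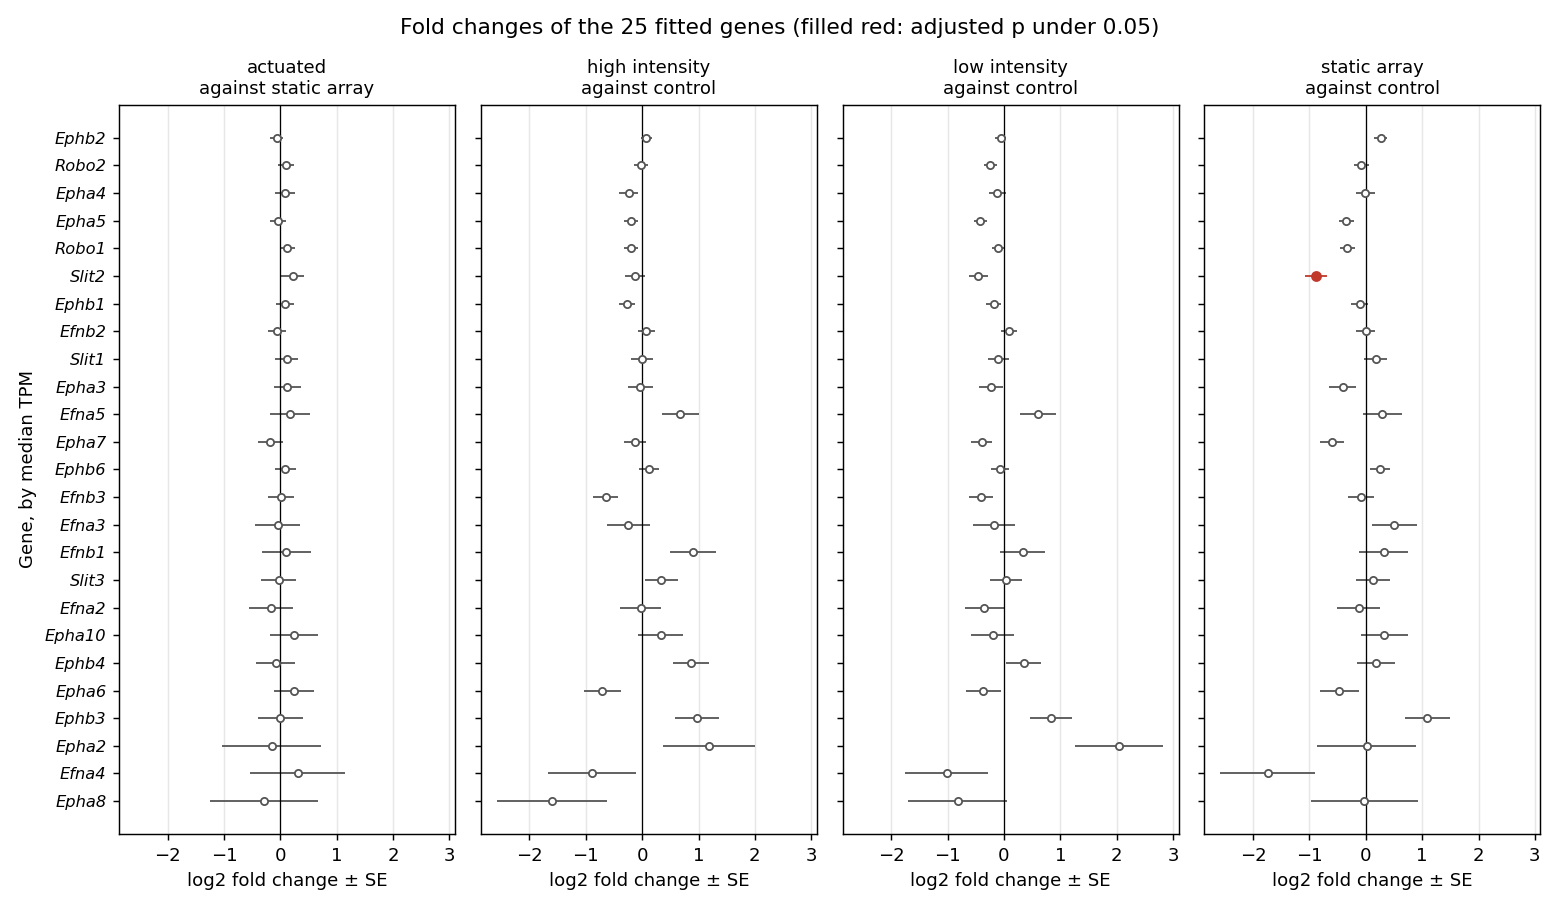
Each of the 4 panels is 1 comparison (actuated array against control has none) and each point the log2 fold change of 1 of the 25 fitted genes with its standard error, ordered by median TPM; filled red marks an edgeR adjusted p under 0.05. Slit2 on the static array, at -0.88, is the only filled point in these panels, and the widest bars belong to Epha2, Efna4 and Epha8.

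The abundant EphB and Robo receptors varied little within groups. Ephb2 was at 213, 203, 216, 209 and 211 CPM in the controls, 224, 225, 194, 197 and 173 CPM at low intensity and 234, 229, 199.9 and 224 CPM at high intensity. Static libraries had Ephb2 at 229, 238 and 292 CPM, and actuated libraries at 225, 233, 229 and 279 CPM. The 3 static libraries and the 4 actuated libraries all lay above the highest control (216 CPM). The difference on the static array, the comparison of its smallest p, did not pass the test (log2 fold change 0.26, SE 0.11, edgeR adjusted p 0.307). The controls held Ephb1 at 93.7, 78.9, 84.2, 61.8 and 75.1 CPM, the low-intensity libraries at 81.9, 63.7, 62.7, 76.5 and 63.6 CPM and the high-intensity libraries at 65.1, 64.9, 47.4 and 83.2 CPM. The static libraries held Ephb1 at 75.9, 72.4 and 71.4 CPM and the actuated libraries at 78.4, 79.5, 76.5 and 75.7 CPM. Its ranges overlapped in every comparison, and the smallest p came with both intensities against the control (log2 fold change -0.23, SE 0.12, edgeR adjusted p 0.321).

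In the biochemical arm, the normalised level of Robo1 was 222, 234, 204, 202 and 173 CPM in the 5 control libraries, 198, 188, 207, 191 and 181 CPM in the 5 low-intensity libraries and 199, 192, 132 and 201 CPM in the 4 high-intensity libraries. On the arrays, Robo1 was at 182, 159 and 153 CPM in the 3 static and 189.9, 195, 152 and 179.5 CPM in the 4 actuated libraries. The static libraries overlapped the lowest control, and high-intensity replicate 3 was the lowest of all (log2 fold change -0.33, SE 0.13, edgeR adjusted p 0.277, static array against control). Robo2 was at 177, 185, 149, 164 and 165 CPM in the controls, 151, 133, 147, 155 and 125 CPM at low intensity and 155, 189, 122 and 194 CPM at high intensity. Static libraries had Robo2 at 173, 168 and 135 CPM, and actuated libraries at 171, 173, 170.2 and 167 CPM. The low-intensity libraries overlapped the controls from 149 CPM up (log2 fold change -0.24, SE 0.12, edgeR adjusted p 0.318, low intensity against control). Neither Robo passed the test in any of the 7 comparisons.

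Epha4 guides limb motor axons, and all its group means, from 108 to 135 CPM, lay inside its control range. The controls held Epha4 at 118, 93.6, 119.98, 175 and 136 CPM, the low-intensity libraries at 97.4, 121, 149.5, 131 and 91.8 CPM and the high-intensity libraries at 109, 124, 82.6 and 119 CPM. The static libraries held Epha4 at 141, 120.1 and 122 CPM and the actuated libraries at 149, 140.3, 119 and 134 CPM. The control range held every high-intensity library but replicate 3 (log2 fold change -0.24, SE 0.16, edgeR adjusted p 0.508, high intensity against control). Slit1 was at 47.7, 41.4, 71.9, 96.4 and 58.3 CPM in the controls, 48.7, 53.9, 57.2, 71.4 and 63.3 CPM at low intensity and 65.6, 74.2, 46.2 and 63.1 CPM at high intensity. Static libraries had Slit1 at 76.9, 74.99 and 60.3 CPM, and actuated libraries at 87.4, 78.96, 63.1 and 76.5 CPM. The control range of Slit1 held every library of the other groups (log2 fold change 0.17, SE 0.20, edgeR adjusted p 0.784, static array against control).

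The leading ephrin-B ligand was Efnb2, and the leading ephrin-A ligands were Efna5 and Efna3. In the biochemical arm, the normalised level of Efnb2 was 57.2, 50.1, 82.3, 79.5 and 77.4 CPM in the 5 control libraries, 76.4, 74.9, 67.8, 68.9 and 78.6 CPM in the 5 low-intensity libraries and 60.03, 91.2, 74.4 and 66.1 CPM in the 4 high-intensity libraries. On the arrays, Efnb2 was at 75.8, 67.4 and 63.9 CPM in the 3 static and 68.2, 78.2, 55.3 and 63.3 CPM in the 4 actuated libraries. All group means were between 66.3 and 73.3 CPM (log2 fold change 0.08, SE 0.13, edgeR adjusted p 0.804, both intensities against control). The controls held Efna5 at 21.9, 3.85, 32.3, 27.6 and 35.9 CPM, the low-intensity libraries at 24.3, 37.1, 33.04, 55.004 and 37.8 CPM and the high-intensity libraries at 44.6, 35.3, 35.2 and 39.7 CPM. The static libraries held Efna5 at 33.2, 24.2 and 32.2 CPM and the actuated libraries at 41.5, 34.9, 26.7 and 31.02 CPM. Control replicate 2, with 11 counts, was far below the other controls, and without it the log2 fold change of both intensities against control was 0.36 (log2 fold change 0.64, SE 0.28, edgeR adjusted p 0.229 with it). Efna3 was at 14.4, 1.402, 14.6, 14.04 and 10.7 CPM in the controls, 13.3, 8.99, 9.197, 6.32 and 10.2 CPM at low intensity and 8.07, 7.297, 9.81 and 11.8 CPM at high intensity. Static libraries had Efna3 at 18.8, 13.5 and 14.8 CPM, and actuated libraries at 13.7, 11.2, 17.5 and 18.2 CPM. Control replicate 2, with 4 counts, was again the lowest library, and without it the log2 fold change of the static array against control was 0.22 (log2 fold change 0.51, SE 0.39, edgeR adjusted p 0.6396 with it).

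The remaining members had fewer counts or wider spreads, and 0 of them was called in any of the 7 comparisons. Epha2 was the most variable, at 40.7, 17.98, 3.41, 4.43 and 53.4 CPM at low intensity, 7.31, 6.49, 36.4 and 4.41 CPM at high intensity and 4.601, 16.8, 1.54, 6.08 and 0.5796 CPM in the controls. It reached 11.6 CPM at most on the arrays. The libraries with the most Epha2, low-intensity replicates 5 and 1 and high-intensity replicate 3, had 1035, 378 and 1098 CPM over the 8 fibroblast genes. Over the 6 progenitor and radial glia genes they had 1336, 1463.5 and 1237 CPM. The other low-intensity libraries had 1097 to 1185 CPM there and the other high-intensity libraries 1072 to 1138 CPM, while the actuated array reached 1517 CPM. Over the 5 epithelial genes the same libraries had 12.2, 97.1 and 103 CPM. Low-intensity replicate 2, with the most fibroblast RNA (2586 CPM), had Epha2 at 18.0 CPM. The part of these cells was not tested.

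Ephb3 was at 6.67 ± 4.33 CPM in the controls (SD, n = 5), 12.1 ± 2.82 at low intensity (n = 5), 13.4 ± 2.249 at high intensity (n = 4), 14.5 ± 3.195 on the static array (n = 3) and 14.5 ± 3.57 CPM on the actuated array (n = 4). The controls spread from 0.769 to 12.7 CPM and overlapped every group. Ephb4 was at 24.8 ± 6.29 CPM at high intensity and 13.5 ± 4.99 CPM in the controls, and Efnb1 at 23.03 ± 14.3 and 12.3 ± 7.14 CPM, both with overlapping ranges. Epha6 was at 7.92 ± 3.05 CPM at high intensity and 12.8 ± 4.47 CPM in the controls. Efna4 was lower on the static array, at 0.452 to 1.26 CPM, and on the actuated array, at 0.611 to 1.66 CPM, than in any control (1.74 to 5.61 CPM), on few counts. These are levels of genes that did not pass the test.

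Over the 21 deeper libraries, Epha3 ranged from 24.6 to 62.0 CPM, Ephb6 from 19.2 to 38.5 CPM and Slit3 from 13.9 to 38.3 CPM. Epha10 ranged from 3.04 to 21.1 CPM, Efna2 from 4.91 to 15.9 CPM, Epha8 from 0 to 9.83 CPM and Efna1 from 0 to 5.96 CPM. Within the actuated array some of these were tight: Epha10 was at 15.1, 15.8, 16.003 and 15.999 CPM and Ephb6 at 34.1, 31.9, 37.2 and 33.6 CPM in the 4 libraries.

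Genes that act with these receptors and ligands were read from a list of 53, all fitted, which includes adaptors, heparan sulfate proteins and proteases. Against the control, 2 of the 53 were called higher at low intensity, 3 with both intensities, 1 on the static and 1 on the actuated array, and 0 at high intensity. The shares of all fitted genes called in these were 0.597%, 1.66%, 0.713%, 1.22% and 0.462%, so that 1 of 53 on an array is close to the share over all genes. None was called lower (edgeR), and 0 were called in actuated against static array or high against low intensity. The list's median log2 fold change was -0.08 at low intensity and -0.07 with both intensities, against -0.01 over all genes in each. Single markers were called in the same comparisons: Ntn1 higher at low intensity (edgeR adjusted p 0.0273) and with both intensities (0.0211), and 1 of 6 progenitor genes in each (Nes, 0.0443 and 0.0402). Of the 4 fitted epithelial genes, Cdh1 was called higher with both intensities (0.0398). At high intensity Ntn1 (0.0452) and 1 of these 4 epithelial genes (0.0420) were called higher. The lists did not move as one. At low intensity the progenitor genes had a median log2 fold change of 0.08. There Fabp7 had means of 360 CPM against 452 CPM in the controls, Sox2 45.9 against 41.2 CPM, Shh 4.25 against 7.81 CPM and Spon1 196 against 197 CPM. The 8 fibroblast genes summed to 367 to 934 CPM in the controls, 279 to 2586 CPM at low and 944 to 2425 CPM at high intensity, and their part was not tested.

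Sdc4 encodes syndecan-4, a heparan sulfate proteoglycan of the cell surface. It was at 40.6 ± 7.98 CPM in the controls (n = 5), 79.8 ± 17.7 at low intensity (n = 5), 58.2 ± 7.703 at high intensity (n = 4), 73.96 ± 9.93 on the static (n = 3) and 75.5 ± 11.5 CPM on the actuated array (n = 4). Sdc4 rose at low intensity (log2 fold change 0.99, SE 0.16, edgeR adjusted p 0.00852), with both intensities (log2 fold change 0.76, SE 0.15, edgeR adjusted p 0.0218), on the static array (log2 fold change 0.87, SE 0.18, edgeR adjusted p 0.0169) and on the actuated array (log2 fold change 0.90, SE 0.17, edgeR adjusted p 0.00627). These comparisons share the control libraries. With all 26 libraries none of the 4 passed (edgeR adjusted p 0.605, 0.5402, 0.8899 and 0.804). Leaving out low-intensity replicate 1 (0.0521) ended the low-intensity call, and leaving out any 1 of static replicates 1 (0.0521), 2 (0.0534) and 4 (0.169) ended the static call. With only the groups compared the static call (0.0823) and that of both intensities (0.0683) were lost, and in limma voom those at low intensity (0.114) and with both intensities (0.213).

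Ext1 encodes a polymerase that builds heparan sulfate chains. It was at 29.1 ± 7.65 CPM in the controls, 53.5 ± 15.8 at low and 50.7 ± 15.7 CPM at high intensity. Ext1 rose at low intensity (log2 fold change 0.88, SE 0.21, edgeR adjusted p 0.0464) and with both intensities (log2 fold change 0.84, SE 0.19, edgeR adjusted p 0.0338), and had the smallest p of the list at high intensity (log2 fold change 0.80, SE 0.22, edgeR adjusted p 0.0829). With all 26 libraries neither call held (edgeR adjusted p 0.787 and 0.562). The low-intensity call was lost when any 1 of these was left out: control replicates 1 (0.0868), 2 (0.0523), 3 (0.0923) and 5 (0.0636), low-intensity replicates 1 (0.106), 2 (0.0716) and 5 (0.1404), high-intensity replicate 1 (0.0537), actuated replicates 1 (0.0613), 2 (0.0629), 3 (0.0604) and 4 (0.0655) and static replicates 1 (0.06298), 2 (0.0617) and 4 (0.0581). The call of both intensities was lost without either of control replicates 1 (0.0574) and 3 (0.0727). Both calls were lost with only the groups compared (0.132 and 0.101) and in limma voom (0.237 and 0.271).

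Rock1 encodes a kinase that acts when ephrins collapse growth cones. It was at 103 ± 26.5 CPM in the controls, 157 ± 31.7 at low and 156 ± 23.8 CPM at high intensity, and rose with both intensities (log2 fold change 0.60, SE 0.14, edgeR adjusted p 0.0397). At high intensity alone it did not pass (log2 fold change 0.60, SE 0.17, edgeR adjusted p 0.0866). The call was lost with all 26 libraries (edgeR adjusted p 0.616), with only the groups compared (0.104), in limma voom (0.203) and when any 1 of these was left out: control replicates 1 (0.0689), 2 (0.0583) and 5 (0.0767), low-intensity replicates 1 (0.0651) and 2 (0.05701), high-intensity replicates 1 (0.0626) and 3 (0.07602) and actuated replicate 4 (0.05201). Between high and low intensity the smallest p values of the list belonged to Fyn, a Src-family kinase (log2 fold change -0.37, SE 0.11, edgeR adjusted p 0.395), and Sdc4 (log2 fold change -0.46, SE 0.17, edgeR adjusted p 0.541). Between actuated and static array they belonged to Enah (log2 fold change 0.16, SE 0.13, edgeR adjusted p 1) and Ndfip1 (log2 fold change -0.16, SE 0.12, edgeR adjusted p 1).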

How the data were processed

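RNA sequencing was done on 26 libraries of motor neuron spheroids, from 4 ng of total RNA where the concentration allowed it, with paired reads of 50 bases. The authors deposited estimated counts (whole numbers, not scaled for depth) and TPM values for 56941 genes. The submitters' processing notes name BWA 0.7.12-r1039, bedtools 2.25.0, STAR and Salmon and the builds mm10, hg19 and GRCm39, without saying which step used which. Whether counting used the strand is not stated in the labels, so reads of antisense partners cannot be told apart.

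Counts were rounded and fitted with edgeR 4.0.16 in R 4.3.3: filterByExpr by group, TMM scaling, 1 coefficient per group over the 21 libraries with at least 1000000 protein-coding counts, and the quasi-likelihood F-test. Adjustment was by Benjamini-Hochberg over all 14730 fitted genes, per comparison, with a threshold of 0.05. CPM values are TMM-normalised. Intervals at 95% cover counting error and replicate spread only, and limits of 3 counts cover counting error only, as no molecular identifiers are mentioned.

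The members, the gene and marker lists and the choice of libraries were made with earlier results of these data known. Fold changes are given for members past the threshold, for the smallest p of each comparison and for the 2 members of highest control TPM per family. Actuated array against control was added after seeing the data, and Epha7 is named from it. Pathway genes are named where past the threshold, otherwise the 2 of smallest p. Alternatives were all 26 libraries, other filters and scalings, a replicate block, the compared groups alone and DESeq2 1.42.0. Others were limma 3.58.1 on log2(TPM + 1) or log2(TPM + 0.1), removal of mitochondrial and rRNA genes, and leaving out each library. The fits named limma voom used voom with quality weights, which weight each library. No pair of replicates agreed within sampling noise (smallest chi-square per degree of freedom 4.74). The fit was also run on simulated data, whose outcome is not given, so nothing is drawn from it.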

Additional observations from a re-analysis of the deposited data

Results flagged for a closer look

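Within groups of 4 or 5 deeper libraries, 5 values of 100 groups tested stood apart from the rest of their group by Dixon's criterion, and chance alone gives about 1 in 20. Of these, 3 belonged to high-intensity replicate 3. Its Epha2 was at 36.4 CPM, against 4.41 to 7.31 CPM in the other high-intensity libraries. Its Robo1, at 131.6 CPM, lay below the others (191.7 to 200.6 CPM), and so did its Slit2, at 68.7 CPM (others 104 to 107 CPM). Epha8 was at 5.11 CPM in low-intensity replicate 3 and at 0.553 to 1.70 CPM in the other low-intensity libraries. Ephb2 was at 278.9 CPM in actuated replicate 4, above the 224.8 to 233 CPM of the other actuated libraries.

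Robo3 had counts in 3 of the shallow libraries that were left out of the comparisons: 9 in control replicate 4, 6 in high-intensity replicate 5 and 17 in static replicate 3. As CPM of all counts these were 6.18, 12.1 and 27.7, while the 21 deeper libraries held 0 to 1.68.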

How the results depend on the processing

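In actuated against static array and in high against low intensity, 0 members were called under each setting run. Of all genes, at most 40 and 126 of 37248 were called there, in that order, both without a filter. With all 26 libraries 0 members were called in each of the 7 comparisons, where 0 to 6 of the 14907 fitted genes were called. With the replicate block the called members became 0 on the static array and 0 on the actuated array against control, and no other count of members moved. The block ended the calls of Slit2 (edgeR adjusted p 0.108) and Sdc4 (0.0653) on the static array, Epha7 (0.0665) on the actuated array, Ext1 at low intensity (0.102) and Rock1 with both intensities (0.102). Same-numbered libraries showed no shared deviation from their group means (median correlation -0.003, range -0.23 to 0.19). The labels do not say whether replicate numbers pair the samples, and these correlations cannot settle it.

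On the static array the count was also 0 with only the groups compared and in both TPM fits, and 0 to 1 with libraries left out. On the actuated array it was 0 with a minimum of 1 CPM in 4 libraries and with mitochondrial and rRNA genes removed. With only the groups compared it was also 0, without a filter 2 and in DESeq2 3 (Epha5, Epha7 and Slit2). It was 4 in both TPM fits and 0 to 2 with libraries left out. At low intensity it was 1 without a filter (Epha2), 1 in DESeq2 (Epha5), 5 in both TPM fits and 0 to 1 with libraries left out. At high intensity it was 3 in both TPM fits. With both intensities it was 2 without a filter (Efna5 and Epha2) and 9 in both TPM fits. Over all 15410 genes, limma on log2(TPM + 1) called 5568 with both intensities and 5261 at low intensity. It called 3987 on the actuated array and 2075 at high intensity. In each, the share of the 25 members called was no higher than that of all genes. Without a filter, 873 (both), 660 (low) and 564 (actuated) of 37248 genes were called, and in DESeq2 471 (low) and 470 (actuated) of 14730. The cause of the differences between settings was not tested.

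The TPM fits moved the median of all genes by 0.64 (low intensity), 0.53 (high), 0.59 (both), 0.52 (static array) and 0.63 (actuated array) on the log2 scale against control, so member values in them are to be read against those shifts. With pseudocounts of 1 and 0.1, directions turned for Efnb3 (0.036 and 0.039) and Epha4 (0.37 and 0.38) at high intensity and for Epha5 (0.31 and 0.32) and Robo2 (0.64 and 0.66) at low intensity. They also turned for Epha5 (0.33 and 0.34) and Ephb1 (0.24 and 0.25) with both intensities and for Robo1 on the static array (0.25 and 0.26). With a pseudocount of 1, the pseudocount of the shifts given here, each of these 7 is at or below its shift. Slit2 turned in actuated against static array (-0.10 and -0.11) and in high against low intensity (-0.30 and -0.32). Efnb2 with both intensities was -0.020 in limma voom and -0.018 to 0.147 with libraries left out, the lowest without control replicate 2. Slit2 and Epha7 stayed lower on both arrays under every setting run. Depth limits the members under about 3 CPM, whose zeros allow up to 0.228 to 1.93 CPM.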
